A study of Mus musculus with 778 samples.

Results

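The genes described here are the 37 whose symbol starts with Ube2, the mouse nomenclature for ubiquitin-conjugating E2 enzymes, among the 23201 genes of a count table of single mouse oocytes. Members of the family were taken by the symbol alone, and 1 further symbol with a hyphen, a pseudogene, was left out. The study followed oocyte growth in wild-type ICR females by single-cell RNA-seq in 4 libraries, in which transcripts were counted by unique molecular identifiers (UMIs). The table holds 223 oocytes of 5 stages, namely 46 non-growing oocytes (NGO, under 20 µm in diameter), 51 growing oocytes of 30 to 45 µm (GO1), 26 of 50 to 55 µm (GO2), 44 of 60 to 65 µm (GO3) and 56 fully grown oocytes (FGO, over 70 µm). NGOs came from females aged 3 to 4 days and the other stages from females aged 3 to 4 weeks, so that stage and age cannot be told apart in any comparison with NGO.

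Ubiquitin is passed from an E1 activating enzyme to the catalytic cysteine of an E2, which then works with an E3 ligase to attach it to a substrate. The E2 largely sets which chain is built or whether a single ubiquitin is added, and a few members of the family carry the ubiquitin-like proteins SUMO, NEDD8 or ISG15 in place of ubiquitin. In oocytes, ubiquitin-dependent destruction of cyclin B and securin through the anaphase-promoting complex (APC/C) drives the exit from meiosis I.

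The stages together held 24976634 to 64311908 UMIs, and the median oocyte held 110146 UMIs in GO1 against 540432 to 972294 in the other stages. In GO1 the 10 deepest oocytes held 80.4% of the UMIs of the stage, and in GO2 73.2%, against 42.6% to 49.7% elsewhere. The table does not give the library of an oocyte, so each stage was 1 pooled sample. No replicate check, test or p-value exists for any difference below, and the 95% intervals cover counting error only. All 12 oocyte markers examined (among them *Gdf9*, *Zp3* and *Dazl*) had at least 10 CPM, that is, UMIs of the gene per 1000000 UMIs of the stage, in every stage. The sum of these 12 was 30855 CPM in NGO and 16657, 17625, 19277 and 24857 CPM from GO1 to FGO in order. Summed over the list, 9 granulosa markers reached 15.8 to 46.1 CPM, 8 stroma and theca markers 2.09 to 13.6 CPM, 6 blood markers 1.64 to 4.60 CPM and 4 endothelium markers 7.90 to 51.2 CPM, most of the last from *Pecam1*. The defining markers *Amh* and *Foxl2* (granulosa) stayed at or below 0.233 CPM, whereas *Cyp19a1* of the same list had 1.11 CPM in NGO and 16.3, 13.3, 6.70 and 1.54 from GO1 to FGO, an arch as in *Ube2u*. *Nr5a2* ranged from 6.91 to 14.5, *Kitl* from 1.35 to 7.11, *Cyp11a1* from 0.198 to 2.80 and *Inha* from 1.47 to 6.09 CPM, each lowest in NGO. *Inhba* of this list went the other way, with 1.67 CPM in NGO and 0.181 to 0.785 CPM later. *Fshr* had 2.82 CPM in NGO, 1.52 in GO2 as its lowest and 5.02 in GO3 as its highest value. *Cdh5* (endothelium) had 0 UMIs in 4 of the 5 stages, and the haemoglobin genes *Hba-a1* and *Hbb-b1* had 0 UMIs in every stage. The granulosa and endothelium sums were higher in GO1, GO2 and GO3 than in NGO and FGO. The part of these and of the oocyte sums in the results on single genes was not tested.

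The promoters of 4 members are shown because these genes are among those that differed from NGO to GO1: *Ube2c* and *Ube2s*, the E2s of the APC/C, did so in opposite directions, and *Ube2t* and *Ube2u* were higher in GO1. Each run holds the 250 bases before the annotated start (RefSeq, build GRCm38.p6), 5′ to 3′ on the strand of the gene, and capitals mark matches to 4 promoter motifs on either strand: the CCAAT box (CCAAT, read as ATTGG on the other strand), the cell cycle gene homology region (TTTGAA, likewise read as TTCAAA), the TATA box (TATAAA) and an E-box (CACGTG).
Ube2c (chr2:164769679-164769928, plus strand): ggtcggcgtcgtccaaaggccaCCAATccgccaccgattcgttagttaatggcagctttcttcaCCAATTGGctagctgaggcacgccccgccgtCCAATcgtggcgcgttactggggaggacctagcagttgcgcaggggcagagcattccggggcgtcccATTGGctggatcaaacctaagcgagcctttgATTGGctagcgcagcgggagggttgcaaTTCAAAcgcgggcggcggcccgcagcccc
Ube2s (chr7:4812341-4812590, minus strand): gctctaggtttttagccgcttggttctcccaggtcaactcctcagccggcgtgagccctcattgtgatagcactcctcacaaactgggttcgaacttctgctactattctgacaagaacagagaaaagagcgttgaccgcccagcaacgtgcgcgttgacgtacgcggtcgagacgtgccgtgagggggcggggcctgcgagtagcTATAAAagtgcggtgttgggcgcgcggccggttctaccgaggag
Ube2t (chr1:134962315-134962564, plus strand): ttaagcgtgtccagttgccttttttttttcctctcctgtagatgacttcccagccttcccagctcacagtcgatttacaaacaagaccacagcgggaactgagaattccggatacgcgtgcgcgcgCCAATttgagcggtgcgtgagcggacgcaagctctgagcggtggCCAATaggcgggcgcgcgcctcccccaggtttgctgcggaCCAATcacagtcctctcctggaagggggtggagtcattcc
Ube2u (chr4:100478617-100478866, plus strand): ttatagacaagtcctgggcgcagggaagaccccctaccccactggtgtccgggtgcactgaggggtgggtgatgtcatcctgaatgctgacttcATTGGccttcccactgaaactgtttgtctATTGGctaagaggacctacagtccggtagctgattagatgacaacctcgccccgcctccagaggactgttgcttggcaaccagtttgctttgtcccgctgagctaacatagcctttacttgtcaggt
The *Ube2c* run held 6 CCAAT matches, of which 1 on each strand overlap by 2 bases, and a TTTGAA match 24 to 29 bases before the start. *Ube2t* held 3 CCAAT matches, all on its own strand, and *Ube2u* held 2, both on the other strand. *Ube2s* held no CCAAT match and a TATAAA match 39 to 44 bases before the start.

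RefSeq listed 41 starts for 30 of the members. Of these starts, 21.95% held CCAAT, 9.76% TTTGAA, 9.76% TATAAA and 4.88% CACGTG, against 33.8%, 15.99%, 12.4% and 6.02% of the 32851 promoters of all genes in windows of the same length. The motifs were chosen after the expression values were known, and a match is a description of the letters and not a site. The median member promoter had 68.4% GC and 23 CpG dinucleotides, against 52.4% and 6 over all promoters. The *Ube2u* promoter, with 53.6% GC and 6 CpG dinucleotides, lay near the median of all promoters rather than near that of the members. By GC alone *Ube2t* (57.6%) and *Ube2s* (58.4%) were also nearer to all promoters, but they held 19 and 23 CpG dinucleotides.

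Of the 37 members, 30 reached 10 CPM somewhere along growth, 23 of them throughout. *Ube2d1*, *Ube2d2b*, *Ube2dnl1*, *Ube2dnl2*, *Ube2e1*, *Ube2m* and *Ube2ql1* stayed below that level, and *Ube2dnl2* was seen with 2 UMIs in all, both in GO2. The symbol also takes in *Ube2cbp*, which encodes an E3 ligase named after its binding to an E2, and *Ube2v1* and *Ube2v2*, which encode variants without the catalytic cysteine. CPM are shares of the UMIs counted and do not follow the amount of RNA in an oocyte, which grows with its volume. UMI counts were not divided by transcript length, so the levels of different genes are not ranked here.

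Of the 30 members that reached 10 CPM, the highest and the lowest of the 5 stages differed by less than 2-fold in 14 and by 2-fold or more in 16, which include all 7 that fell below 10 CPM in some stage. The difference was under 1.5-fold in 6, among them *Ube2b*, *Ube2d2a*, *Ube2d3*, *Ube2n* and *Ube2w*. Over the 4 stages from GO1 to FGO the difference of sums was below 2-fold in 20 of the 23 with at least 10 CPM throughout, and below 1.5-fold in 13. The exceptions among the 23 were *Ube2c* (2.78-fold), *Ube2v1* (2.28-fold) and *Ube2l3* (2.19-fold), each lowest in GO1 or GO2 and highest in FGO. Of the 7 members that this minimum leaves out, *Ube2u* (7.12-fold), *Ube2r2* (2.97-fold), *Ube2q1* (2.58-fold), *Ube2l6* (2.15-fold) and *Ube2z* (2.08-fold) also differed by more than 2-fold. *Ube2o* (1.91-fold) and *Ube2e2* (1.59-fold) did not. These ranges were not counted over all genes, so the counts are no result about the family. Of the 30 members that reached 10 CPM, 15 peaked in NGO, 8 in GO1, 4 in GO2, *Ube2j2* and *Ube2l6* in GO3 and *Ube2r2* in FGO. These are 50%, 26.7%, 13.3%, 6.67% and 3.33% of the members from NGO to FGO in order. Of all 8671 genes that reached 10 CPM, 45.7%, 23.8%, 9.25%, 9.39% and 11.9% peaked in these stages. The members' counts are too small to set apart from those shares. The map of levels by stage shows both groups, with *Ube2l3*, *Ube2v1* and *Ube2c* at the top and *Ube2h*, *Ube2u* and *Ube2l6* at the bottom.

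**Figure D1:**
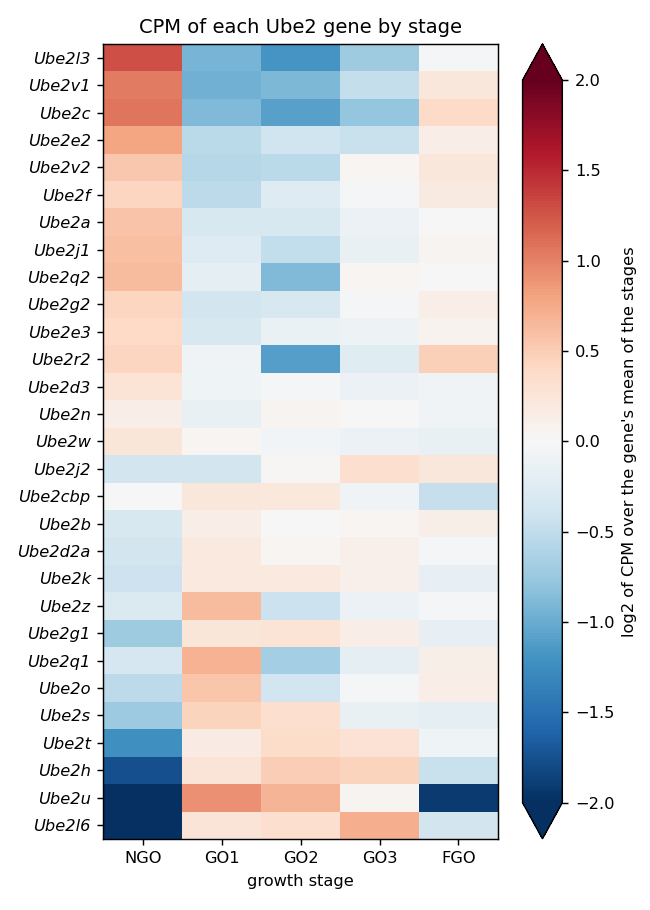
Heat map of 29 of the 30 Ube2 genes that reached 10 CPM (rows, ordered by the GO1 over NGO ratio) in the 5 growth stages (columns). Colour is the log2 of the CPM of summed UMIs over the mean of the gene's 5 stages, with arrows on the scale for values beyond it; NGO holds the highest value of 14 of the genes shown, and the middle of the map is pale because 13 of the 22 shown with at least 10 CPM throughout varied by less than 2-fold.

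Summed over all 37 members, Ube2 transcripts made up 7748 CPM in NGO (95% counting interval 7713 to 7782). From GO1 to FGO in order the stages held 6547 (6516 to 6578), 6732 (6699.9 to 6764), 6689.7 (6667 to 6712) and 6921 (6900.2 to 6941) CPM. Single oocytes ranged from 6496 to 8383 CPM in NGO around a median of 7700.1, and from GO1 onward in order from 4275 to 7039 (median 5703), 4184 to 7209 (median 6496), 5649 to 7349 (median 6567) and 5563 to 7822 (median 6799). The summed share was thus highest in NGO, except with the size factors of DESeq2 or the TMM factors of edgeR, under which GO2 was highest (7576 and 7453 against 7106 and 6841 in NGO), and the ranges of single oocytes overlapped between NGO and every other stage. *Ube2d3* alone held 26.6% to 30.3% of the sum. Without it the sums were 5402 CPM in NGO and 4716, 4838, 4909 and 5081 CPM from GO1 to FGO, again highest in NGO and lowest in GO1.

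**Figure D2:**
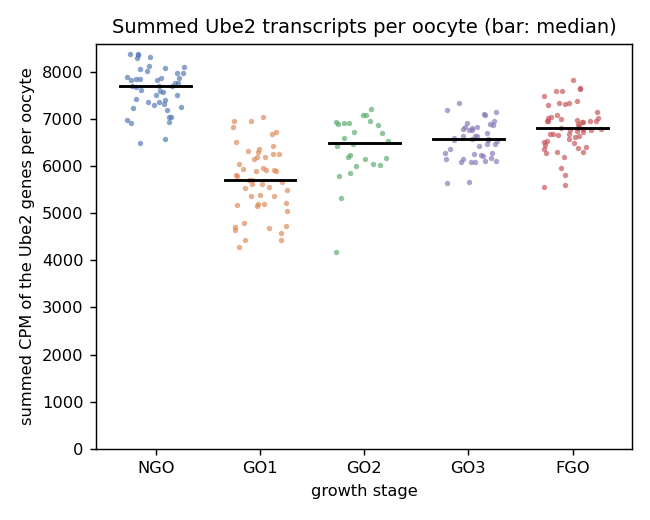
Summed CPM of the 37 Ube2 genes (vertical axis) in each oocyte (points) by growth stage (horizontal axis), with the median of each stage as a bar. The NGO median of 7700.1 lies above the medians of the other stages, 5703 to 6799, while the points of all stages overlap.

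From NGO to GO1, the start of growth, 29 members could be compared, having at least 10 CPM in either stage. The rule for a difference was one of size, a ratio of 2-fold or more with 10 CPM or more on the higher side, and by it 6 members were higher and 5 lower in GO1. Over the 8527 genes of the table compared in the same way, 20.6% were higher and 25.7% lower. The members' counts correspond to like shares, and are no result about the family as such. The median member had a log2 ratio of -0.27, against -0.15 over all genes. DESeq2 and TMM factors moved the log2 ratio of the median gene up by 0.10 and 0.16, and a mean over oocytes in place of sums moved it by -0.18, so ratios near 1 have no firm side. *Ube2u*, *Ube2h*, *Ube2t*, *Ube2s*, *Ube2o* and *Ube2q1* were higher, and *Ube2l3*, *Ube2v1*, *Ube2c*, *Ube2e2* and *Ube2v2* lower.

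**Figure D3:**
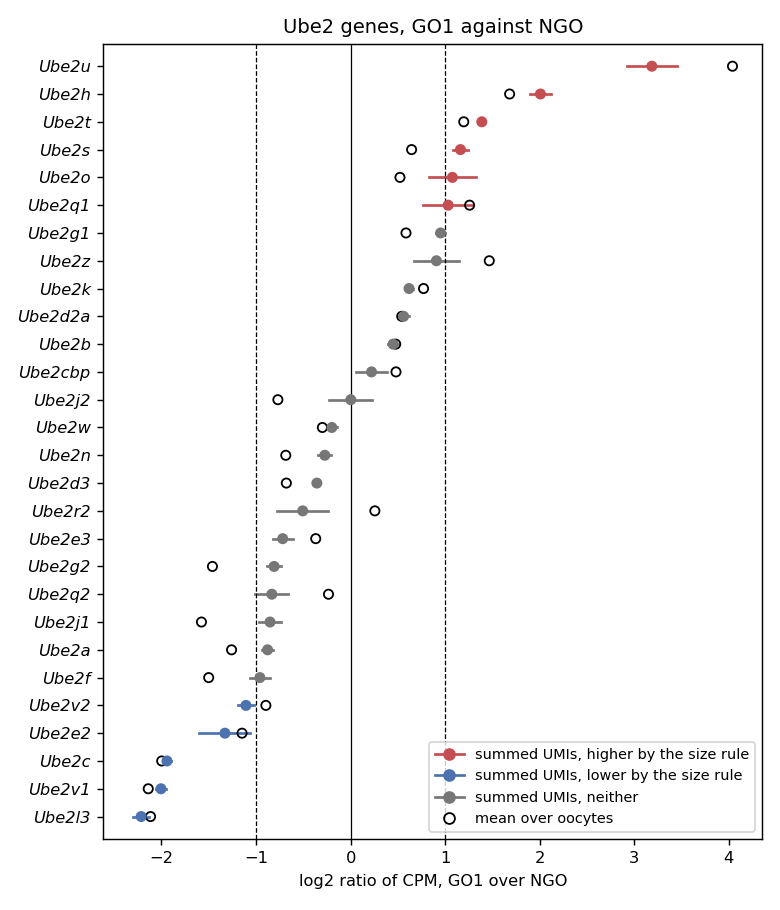
Log2 ratio of CPM, GO1 over NGO (horizontal axis), for 28 of the 29 Ube2 genes compared. Filled points are ratios of summed UMIs with 95% counting intervals as bars, in red or blue where past the 2-fold limit (dashed lines), and open points are ratios of the mean over oocytes; *Ube2s*, *Ube2o* and *Ube2v2* lie past the limit only as sums, and 5 genes in grey (*Ube2a*, *Ube2f*, *Ube2g2*, *Ube2j1* and *Ube2z*) only as means.

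The E2s of the APC/C, the ligase that triggers anaphase, differed in opposite directions at this step. Ube2c adds the first ubiquitins to APC/C substrates, and its gene (chr2:164595398-164604322, plus strand, build NCBIM37) was lower in GO1. Single-oocyte values of *Ube2c* were 666 to 1431 CPM with a median of 1010.3 in NGO, and from GO1 onward in order 23.7 to 421 (median 258), 60.6 to 346 (median 204), 179.8 to 523 (median 294) and 336 to 1388 (median 720.2). No GO1 oocyte reached the lowest NGO oocyte, whereas FGO oocytes reached from the GO3 range into the NGO range. As sums, *Ube2c* stood at 1037 CPM in NGO and 269.9, 234, 292 and 649 CPM from GO1 to FGO in order. It was 3.84-fold lower in GO1 than in NGO (95% counting interval 3.74 to 3.95), 2.22-fold higher in FGO than in GO3 (95% counting interval 2.18 to 2.27), and 2.41-fold higher in FGO than in GO1. Of the 56 FGO oocytes, 41 exceeded every GO3 oocyte and 51 exceeded every GO1 oocyte. *Ube2c* was thus low in the 3 growing stages between NGO and FGO, and as a sum was the only member past the size rule upward from GO3 to FGO. As means over oocytes, *Ube2l3* (2.11-fold) and *Ube2v1* (2.05-fold) were past 2-fold there too. *Tnnc2*, which overlaps *Ube2c* on the other strand, had 0.0794 to 4.64 CPM, and whether counting used strand is not given in the sources used here.

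Ube2s elongates the chains that Ube2c begins, and its gene (chr7:4759616-4763942, minus strand) was higher in GO1 as a sum. Single-oocyte values of *Ube2s* were 43.01 to 137.6 CPM with a median of 64.8 in NGO, and from GO1 onward in order 0 to 347 (median 93.7), 30.6 to 240.2 (median 122.1), 38.2 to 260.0 (median 87.9) and 16.2 to 156.2 (median 86.8), so that the ranges overlapped widely. The sums were 66.6 CPM in NGO and 149.03, 138.7, 98.9 and 96.9 CPM from GO1 to FGO in order, 2.24-fold higher in GO1 than in NGO (95% counting interval 2.11 to 2.37). This call rested on the deepest oocytes: the ratio was 1.56-fold as a mean over oocytes, 1.33-fold without the 10 deepest oocytes of each stage and 1.21-fold with every oocyte thinned to 20000 UMIs. By contrast the lower *Ube2c* level in GO1 was 3.44-fold to 4.02-fold under 5 other scalings and weightings. *Ube2c* was higher in FGO than in GO3, whereas the GO3 over FGO ratio of *Ube2s* was 1.02 with an interval that includes 1, 0.983 to 1.06.

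Ube2n (Ubc13) builds chains for signalling and DNA repair together with a variant partner, Ube2v1 or Ube2v2, and the partners differed more between stages than Ube2n did. *Ube2n* (chr10:94977779-95008292, plus strand) stood at 138.7 CPM in NGO and 114.8, 131.96, 126.5 and 121.02 CPM from GO1 to FGO in order, and was 1.21-fold lower in GO1 than in NGO (95% counting interval 1.15 to 1.27). As a mean over oocytes it was 1.61-fold lower. Single-oocyte values of *Ube2n* were 53.4 to 208 CPM with a median of 133.4 in NGO, and from GO1 onward in order 0 to 174.8 (median 87.6), 81.8 to 183.7 (median 127.2), 74.5 to 181.1 (median 120.4) and 25.1 to 172.1 (median 116.5). These ranges overlapped between all stages.

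*Ube2v1* (chr2:167433138-167457595, minus strand) had single-oocyte values of 369.9 to 814 CPM with a median of 484 in NGO, and from GO1 onward in order 0 to 259 (median 113.9), 4.66 to 235 (median 125.5), 95.9 to 322 (median 195.4) and 112.8 to 820.4 (median 366). All 51 GO1 oocytes lay below all 46 NGO oocytes, while FGO spanned from the GO1 range to the NGO range. The sums were 536 CPM in NGO and 133.6, 139.2, 187.7 and 305 CPM from GO1 to FGO in order. *Ube2v1* was 4.02-fold lower in GO1 than in NGO (95% counting interval 3.87 to 4.17), and 2.28-fold higher in FGO than in GO1 (95% counting interval 2.20 to 2.37). *Tmem189*, which overlaps it on the same strand, had 0.595 to 2.54 CPM.

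*Ube2v2* (chr16:15552770-15594617, minus strand) was lower in GO1 as well, by less. Single-oocyte values of *Ube2v2* were 45.4 to 223 CPM with a median of 137.5 in NGO, and from GO1 onward in order 0 to 287 (median 61.1), 0 to 126.2 (median 62.3), 51.5 to 197.3 (median 99.2) and 66.6 to 260.3 (median 118.8), and every pair of stages overlapped. From sums of 138.1 CPM in NGO and 64.1, 65.6, 97.9 and 111.3 CPM from GO1 to FGO in order, it was 2.15-fold lower in GO1 than in NGO (95% counting interval 2.03 to 2.28). That call sat at the limit and was lost in 4 of 5 other scalings and weightings, at 1.77-fold to 1.93-fold. The coding sequences of *Ube2v1* and *Ube2v2* share 77.6% of aligned bases.

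Ube2l3 (UBCH7) serves ligases that take the ubiquitin onto their own cysteine, of the HECT and RING-between-RING kinds, and *Ube2l3* (chr16:17152106-17202742, minus strand) had the largest downward ratio of sums from NGO to GO1 among the 29 members compared, although *Ube2v1* exceeded it as a mean over oocytes (4.41-fold against 4.33-fold) and with thinned oocytes (4.25-fold against 3.94-fold), and matched it at 4.26-fold without the deepest oocytes. Single-oocyte values of *Ube2l3* were 144.7 to 379 CPM with a median of 255 in NGO, and from GO1 onward in order 0 to 206 (median 52.6), 0 to 83.8 (median 41.8), 27.9 to 132.9 (median 62.6) and 44.9 to 389 (median 125.8). All but 2 GO1 oocytes lay below the lowest NGO oocyte, and FGO overlapped every other stage. Sums of 250.1 CPM in NGO and 53.9, 45.3, 62.6 and 99.1 CPM from GO1 to FGO in order made it 4.64-fold lower in GO1 than in NGO (95% counting interval 4.38 to 4.92). It was also 2.52-fold lower in FGO than in NGO (95% counting interval 2.44 to 2.61), a difference that was 1.84-fold as a mean over oocytes and 1.89-fold with thinned oocytes, below the limit in both. *Ydjc*, on the other strand of the locus, had 2.72 to 5.60 CPM.

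Ube2l6 is the E2 for ISG15, the interferon-induced modifier. *Ube2l6* (chr2:84638985-84650492, plus strand) was low throughout, with sums of 0.754 CPM in NGO and 7.48, 7.93, 10.4 and 4.85 CPM from GO1 to FGO in order, the NGO value resting on 19 UMIs. Single-oocyte values of *Ube2l6* were 0 to 9.48 CPM with a median of 0 in NGO, and from GO1 onward in order 0 to 52.6 (median 6.77), 0 to 15.6 (median 5.05), 0 to 21.03 (median 10.9) and 0 to 27.7 (median 3.34), and 32 of the 46 NGO oocytes had none. It was 2.15-fold lower in FGO than in GO3 (95% counting interval 1.86 to 2.48), which just met the size rule. Without the 10 deepest oocytes of each stage its GO3 level was 9.76 CPM, under the minimum of 10 CPM. The comparison of NGO with GO1 was not made because both stages were under 10 CPM.

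Ube2t adds a single ubiquitin to the Fanconi protein Fancd2 in the repair of DNA crosslinks, and *Ube2t* (chr1:136859142-136870739, plus strand) was higher in every later stage than in NGO. Single-oocyte values of *Ube2t* were 226 to 549.7 CPM with a median of 355 in NGO, and from GO1 onward in order 75.6 to 1474 (median 877), 173.5 to 1635 (median 1079), 747 to 1375 (median 1020.1) and 473 to 1029 (median 801). NGO oocytes kept to a narrow band, GO1 and GO2 oocytes were spread, and GO3 lay wholly above NGO. With sums of 363 CPM in NGO and 949, 1092, 1042 and 803 CPM from GO1 to FGO in order, it was 2.62-fold higher in GO1 than in NGO (95% counting interval 2.55 to 2.68) and 2.21-fold higher in FGO than in NGO (95% counting interval 2.16 to 2.26). Of the 56 FGO oocytes, 51 exceeded every NGO oocyte. From GO3 to FGO it was 1.30-fold lower, within the limit.

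Ube2h is known as the partner of the multi-subunit CTLH ligase. *Ube2h* (chr6:30161289-30254539, minus strand) was higher in GO1, with a few oocytes far above the rest in most stages. Single-oocyte values of *Ube2h* were 0 to 424 CPM with a median of 36.5 in NGO, and from GO1 onward in order 0 to 681 (median 145.5), 103.2 to 381 (median 169.4), 85.4 to 692 (median 147.5) and 18.5 to 322 (median 86.7). The bulk of NGO oocytes lay low, although 1 at 424 CPM stood above all but 1 of the GO1 oocytes. The sums were 35.3 CPM in NGO and 141.97, 168.1, 161.8 and 87.1 CPM from GO1 to FGO in order, that is, 4.02-fold higher in GO1 than in NGO (95% counting interval 3.74 to 4.33). It was 2.47-fold higher in FGO than in NGO (95% counting interval 2.30 to 2.65), but 1.84-fold as a mean over oocytes and 1.67-fold with thinned oocytes. From GO3 to FGO it was 1.86-fold lower, short of the 2-fold limit.

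*Ube2u* (chr4:100151465-100222752, plus strand) had the largest ratio between NGO and GO1 among the 29 members compared and was again low in FGO. Single-oocyte values of *Ube2u* were 0 to 24.96 CPM with a median of 3.40 in NGO, and from GO1 onward in order 0 to 351 (median 70.3), 19.7 to 163.3 (median 44.3), 2.73 to 63.8 (median 26.04) and 0 to 28.4 (median 4.46). Most GO1 oocytes, 47 of 51, exceeded every NGO oocyte, and NGO and FGO covered nearly the same range. The sums, 5.32 CPM in NGO and 48.4, 40.7, 26.5 and 6.80 CPM from GO1 to FGO in order, made it 9.10-fold higher in GO1 than in NGO (95% counting interval 7.61 to 10.9). It was 3.90-fold lower in FGO than in GO3 (95% counting interval 3.50 to 4.35) and 7.12-fold lower in FGO than in GO1. The GO1 level was 84.6 CPM as a mean over oocytes, which raised the ratio over NGO to 16.4-fold and that over FGO to 14.5-fold. Thinned to 20000 UMIs, the GO3 over FGO ratio was 2.16-fold. The plot of single oocytes shows this arch beside the opposite shape of *Ube2c*, *Ube2v1* and *Ube2l3*.

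**Figure D4:**
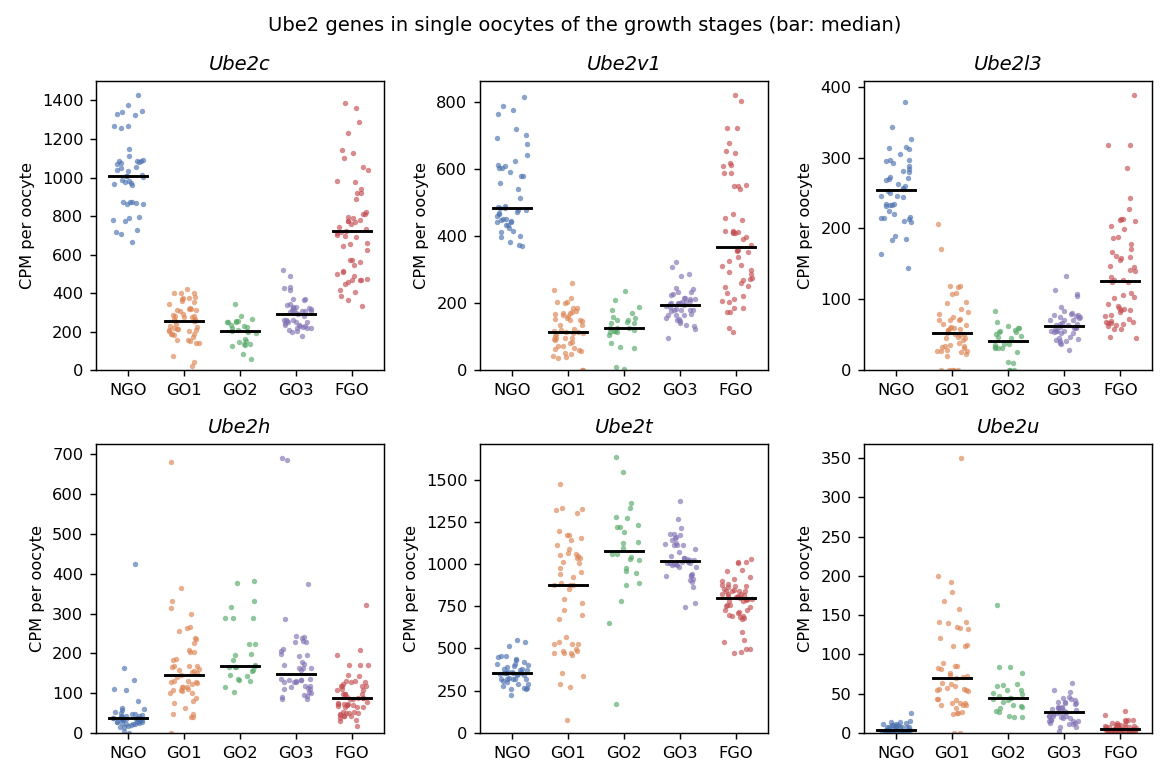
CPM per oocyte (vertical axes, linear from 0) of 6 Ube2 genes by growth stage (horizontal axes), with 1 point per oocyte and the stage median as a bar. *Ube2c*, *Ube2v1* and *Ube2l3* dip from GO1 to GO3 (medians of 1010.3, 258 and 720.2 CPM in NGO, GO1 and FGO for *Ube2c*), whereas *Ube2h*, *Ube2t* and *Ube2u* lie higher in GO1 than in NGO.

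Of the remaining members, *Ube2o*, *Ube2q1* and *Ube2z* met the size rule at levels close to its minimum. Ube2o is a large enzyme that acts as E2 and E3 at once. *Ube2o* (chr11:116399054-116442761, minus strand) had sums of 7.82 CPM in NGO and 16.5, 8.65, 10.9 and 12.3 CPM from GO1 to FGO in order and was 2.11-fold higher in GO1 than in NGO (95% counting interval 1.78 to 2.51). Single-oocyte values of *Ube2o* were 0 to 35.9 CPM with a median of 8.04 in NGO, and from GO1 onward in order 0 to 99.8 (median 6.94), 0 to 18.1 (median 7.51), 2.39 to 31.7 (median 10.1) and 0 to 51.5 (median 10.8). The medians of NGO and GO1 were close and the ratio was 1.44-fold as a mean over oocytes, 1.23-fold thinned and 1.46-fold without the deepest oocytes.

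*Ube2q1* (chr3:89577531-89587919, plus strand) had sums of 7.02 CPM in NGO and 14.4, 5.57, 7.81 and 9.59 CPM from GO1 to FGO in order. Single-oocyte values of *Ube2q1* were 0 to 61.7 CPM with a median of 6.30 in NGO, and from GO1 onward in order 0 to 141.4 (median 6.77), 0 to 14.8 (median 4.60), 0 to 21.8 (median 8.35) and 0 to 26.5 (median 8.42). Its GO1 value came from part of the oocytes, 20 of 51 having no UMI at the low depth of that stage. It was 2.04-fold higher in GO1 than in NGO (95% counting interval 1.71 to 2.46), a call lost at 1.48-fold when thinned and 1.74-fold without the deepest oocytes. It was 2.58-fold lower in GO2 than in GO1 (95% counting interval 2.12 to 3.15), and 4.27-fold as a mean over oocytes.

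Ube2z is charged by the E1 Uba6 rather than by Uba1. *Ube2z* (chr11:95908746-95926702, minus strand) had sums of 8.85 CPM in NGO and 16.6, 7.97, 9.92 and 10.4 CPM from GO1 to FGO in order. Single-oocyte values of *Ube2z* were 0 to 26.5 CPM with a median of 6.82 in NGO, and from GO1 onward in order 0 to 188.1 (median 14.1), 0 to 31.5 (median 6.21), 0 to 33.96 (median 7.95) and 0 to 28.8 (median 9.29), all stages overlapping. From NGO to GO1 it was 1.88-fold higher as a sum and 2.76-fold as a mean over oocytes. It was 2.08-fold lower in GO2 than in GO1 (95% counting interval 1.76 to 2.47). With size factors of DESeq2 and TMM factors of edgeR the ratio was 1.82-fold and 1.86-fold, short of the limit, and with thinned oocytes 9.69-fold, from a GO2 level of a single UMI. *Ube2w*, which modifies the amino terminus of proteins, stood at 253 CPM in NGO and 220.0, 205, 197.4 and 192.8 CPM from GO1 to FGO in order. *Ube2q2* was 28.8 CPM in NGO and 10.01 in GO2, and *Ube2cbp* went from 24.7 CPM in GO1 to 15.4 in FGO, without passing the rule in any pair of stages compared.

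Ube2d3, of the UBCH5 group that works with many RING ligases, stayed within the 2-fold limit as sums and as means over oocytes. *Ube2d3* (chr3:135101261-135130142, plus strand) had sums of 2345 CPM in NGO and 1831, 1894, 1780.3 and 1839.8 CPM from GO1 to FGO in order. Single-oocyte values of *Ube2d3* were 1429 to 3005 CPM with a median of 2261 in NGO, and from GO1 onward in order 763 to 2469 (median 1352), 1083 to 2581 (median 1729.8), 1219.8 to 2250.2 (median 1649) and 879.6 to 2509 (median 1607). It was 1.28-fold lower in GO1 than in NGO (95% counting interval 1.27 to 1.30), and the 4 later stages lay within 1.06-fold of each other. Its relative *Ube2d2a* went the other way from NGO to GO1, at 141.2 and 208 CPM, within the limit, and *Ube2d1* reached at most 5.36 CPM. The coding sequences of *Ube2d1* and *Ube2d3* share 77.3% of bases, and how reads shared by such relatives were counted is not given in the sources used here.

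The Ube2e proteins carry an extension in front of the catalytic domain. Of their genes, *Ube2e2* (chr14:19406091-19726781, minus strand) was lower in GO1. Single-oocyte values of *Ube2e2* were 0 to 40.6 CPM with a median of 14.3 in NGO, and from GO1 onward in order 0 to 59.01 (median 0), 0 to 21.03 (median 5.90), 0 to 18.4 (median 6.11) and 0 to 40.1 (median 9.996), and 28 of the 51 GO1 oocytes had no UMI at the low depth of that stage. Its sums were 15.1 CPM in NGO and 6.02, 6.65, 6.46 and 9.56 CPM from GO1 to FGO in order, which made it 2.51-fold lower in GO1 than in NGO (95% counting interval 2.08 to 3.04). *Ube2e3* was 1.65-fold lower in GO1, within the limit. *Ube2e1* had at most 0.373 CPM.

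Ube2a and Ube2b, the mammalian forms of yeast Rad6, ubiquitinate histone H2B and the replication clamp PCNA. *Ube2a* (chrX:34414353-34424210, plus strand) had sums of 302 CPM in NGO and 164.5, 163.9, 189.01 and 202 CPM from GO1 to FGO in order. Single-oocyte values of *Ube2a* were 156.9 to 520.1 CPM with a median of 306 in NGO, and from GO1 onward in order 0 to 323 (median 118.03), 18.6 to 252 (median 137.9), 107.5 to 253 (median 177.5) and 12.5 to 260.3 (median 179.7). It was 1.84-fold lower in GO1 than in NGO (95% counting interval 1.77 to 1.91), and 2.39-fold lower as a mean over oocytes. *Ube2b* (chr11:51798999-51814264, minus strand) lay on the other side, with sums of 199.8 CPM in NGO and 273, 247, 255 and 269 CPM from GO1 to FGO in order. Single-oocyte values of *Ube2b* were 132.7 to 292 CPM with a median of 201 in NGO, and from GO1 onward in order 37.6 to 735 (median 264), 88.6 to 410.1 (median 243), 167.6 to 335 (median 249) and 194.1 to 455 (median 290.2). It was 1.37-fold higher in GO1 than in NGO (95% counting interval 1.32 to 1.42). The pair, with 77.6% of coding bases in common, thus changed in opposite directions at the start of growth without either passing the limit as a sum.

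Ube2m and Ube2f carry NEDD8 to the cullins. *Ube2m* (chr7:13620587-13623622, minus strand) stayed under 10 CPM, with sums of 8.77 CPM in NGO and 7.74, 5.12, 7.79 and 8.18 CPM from GO1 to FGO in order. Single-oocyte values of *Ube2m* were 0 to 22.1 CPM with a median of 8.40 in NGO, and from GO1 onward in order 0 to 24.3 (median 0), 0 to 10.9 (median 4.42), 0 to 29.7 (median 7.29) and 0 to 22.8 (median 6.11). The GO1 median of 0 was found at the low depth of that stage, and no comparison was made for *Ube2m*. *Ube2f* had 76.4 CPM in NGO and 39.3, 47.1, 55.2 and 64.1 CPM from GO1 to FGO in order, and was 1.94-fold lower in GO1 than in NGO (95% counting interval 1.80 to 2.10), just short of the limit, but 2.83-fold lower as a mean over oocytes.

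Of the E2s of endoplasmic reticulum degradation and of cullin-dependent chain building, none passed the size rule in the 6 pairs of stages compared. *Ube2g1* and *Ube2k* were higher in GO1 than in NGO, at 1.93-fold (interval 1.88 to 1.995) and 1.53-fold (1.49 to 1.58), and *Ube2g1* passed the limit with DESeq2 and with TMM factors. As means over oocytes, *Ube2g1* was 1.5005-fold and *Ube2k* 1.71-fold higher. *Ube2g2* and *Ube2j1*, which serve ligases of the endoplasmic reticulum membrane, were 1.75-fold and 1.81-fold lower as sums, and 2.75-fold and 2.98-fold lower as means over oocytes. Outside those pairs, *Ube2j1* had its highest sum in NGO and its lowest in GO2, 2.12-fold apart. *Ube2j2* was at 12.6 CPM in NGO and 12.6 in GO1. *Ube2r2* ranged from 3.76 CPM in GO2 to 11.2 in FGO, 2.97-fold apart, a pair that was not among the 6.

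After the start of growth few members differed. From GO1 to GO2, 0 of 27 members compared were higher and 2 lower (*Ube2q1* and *Ube2z*), against 0.109% and 3.03% of the 7356 genes. Between GO2 and GO3, 0 of 26 were higher and 0 lower, against 3.34% and 1.01% of 7334 genes. From GO3 to FGO, 1 of 28 was higher (*Ube2c*) and 2 lower (*Ube2u* and *Ube2l6*), against 2.41% and 3.54% of 7622 genes. Over growth as a whole, GO1 to FGO, 2 of 28 were higher (*Ube2c* and *Ube2v1*) and 1 lower (*Ube2u*), against 7.98% and 9.03% of 7873 genes. Between the end points, NGO and FGO, 2 of 27 were higher in FGO (*Ube2h* and *Ube2t*) and 1 lower (*Ube2l3*), against 11.3% and 16% of 8132 genes. In each pair the members' counts are too small to set apart from those shares. The median log2 ratio of the members was -0.01, 0.05, 0.06, 0.04 and -0.25 in these 5 pairs, against -0.11, 0.08, 0.06, 0.02 and -0.12 over all genes.

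The first and the last step share no oocytes, and members mostly went opposite ways in them. Of the 27 members compared in both, 12 had a ratio below 1 from NGO to GO1 and above 1 from GO3 to FGO, 9 the reverse, 3 were below 1 in both and 3 above 1 in both. The 12 with a dip include *Ube2c*, *Ube2v1*, *Ube2l3*, *Ube2v2* and *Ube2a*, and the 9 with an arch include *Ube2u*, *Ube2h*, *Ube2t*, *Ube2k* and *Ube2g1*. Over all 7499 genes compared in both steps, 44.2% had a dip and 35.5% an arch, against 44.4% and 33.3% of the members. The pattern was therefore as frequent in the whole table as in the family. *Ube2c* and *Ube2u* alone among the members passed the 2-fold limit in both steps as sums. As means over oocytes, *Ube2l3* (4.33-fold lower, then 2.11-fold higher) and *Ube2v1* (4.41-fold lower, then 2.05-fold higher) passed it in both as well.

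**Figure D5:**
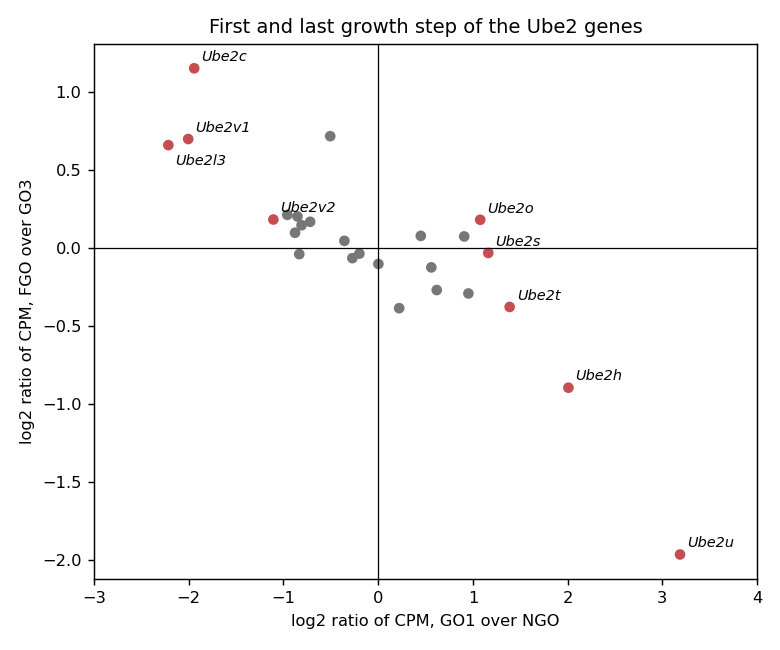
Log2 ratio of CPM from NGO to GO1 (horizontal axis) against that from GO3 to FGO (vertical axis) for 26 of the 27 Ube2 genes compared in both steps, with genes past the size rule in either step in red and named. The upper left field holds 11 genes and the lower right field 9; *Ube2c* (-1.94 and 1.15) and *Ube2u* (3.19 and -1.96) lie farthest from the centre along this diagonal.

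The enzymes before and after the E2s in the cascade were compared by lists. Of the E1 subunits, *Sae1*, a subunit of the SUMO E1, was 4.73-fold lower in GO1 than in NGO (111.3 CPM in NGO and 23.5 in GO1), whereas *Uba3*, the catalytic subunit of the NEDD8 E1, was 2.24-fold higher. Named after their values were seen, *Uba1*, the main ubiquitin E1 (2.17-fold), *Uba2* of the SUMO E1 (2.15-fold) and *Uba6* (2.002-fold) were also lower in GO1. *Uba1* and *Uba2* fell short of the limit with TMM factors (1.94-fold and 1.93-fold) and *Uba6* in all 5 other scalings and weightings (1.23-fold to 1.87-fold). Among 8 E2 genes with other symbols, *Ufc1*, the E2 for UFM1, was 6.80-fold lower and *Atg10*, the E2 for the autophagy modifier Atg12, 2.47-fold higher. *Ufc1* stood at 103.98 CPM in NGO against 15.3 in GO1.

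Of the ligases that the E2s serve, 16 APC/C subunits and regulators were compared, of which 3 were higher and 5 lower in GO1, with a median log2 ratio of -0.04. For this and the following lists the shares over all genes are 20.6% higher and 25.7% lower with a median of -0.15, and counts of this size are not set apart from them. The APC/C activator *Fzr1* (Cdh1), at 353 CPM in NGO and 119.1 in GO1, was 2.97-fold lower, *Anapc2* 2.91-fold and *Anapc5* 3.03-fold lower, in the same direction as *Ube2c*. Named after their values were seen, *Anapc11* (2.33-fold) and *Anapc13* (2.11-fold) were the other lower genes, and the 3 higher ones were *Anapc1* (2.59-fold), the activator *Cdc20* (2.26-fold) and the APC/C inhibitor *Fbxo5* (2.32-fold), in the same direction as *Ube2s*. In the cullin-RING core 0 of 12 were higher and 3 lower, although the median was 0.58. The RING subunit *Rnf7*, which pairs with Ube2f, was 5.60-fold lower, *Cul4a* 4.34-fold and *Cul2* 2.04-fold. Among RING partners of Rad6 and Ubc13, 2 of 8 were higher (*Shprh* 2.69-fold and *Hltf* 2.01-fold) and 0 lower, with a median of 0.08. In endoplasmic reticulum degradation 2 of 9 were higher (*March6* 3.10-fold and *Rnf139* 2.29-fold) and 1 lower (*Aup1*, which recruits Ube2g2, 3.46-fold), with a median of -0.19. Of 5 SUMO ligases, 2 were higher (*Ranbp2* 2.48-fold and *Nsmce2* 2.33-fold) and 0 lower, with a median of 0.59. Of 3 Fanconi genes compared, 2 were lower (*Fancd2* 2.69-fold and *Fance* 2.15-fold) and 0 higher, with a median of -1.10, while *Ube2t* was higher. *Anapc13* fell short of the limit in all 5 other scalings and weightings (1.51-fold to 1.96-fold), *Cdc20* as a mean over oocytes, thinned and without the deepest oocytes (1.29-fold to 1.68-fold), *Cul2* with DESeq2 and TMM factors (1.91-fold and 1.83-fold) and *Fance* with TMM factors (1.92-fold). *Fancd2* fell below 10 CPM in both stages in 4 of the 5. In each of the 3 later steps no list had more than 1 gene past the size rule in either direction.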

How the data were processed

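Reads of single oocytes were split by cell barcode and trimmed, and the authors aligned them to transcripts of the mm9 build with TopHat (v2.0.12), collapsed them by UMI and deposited UMI counts, not normalized, for cells that passed their filters. UMIs were added up per stage and given as CPM, with exact Poisson intervals for sums and intervals from the binomial split of both counts for ratios, at 95%. Column names carry no library, so stages were not tested. The size rule was at least 2-fold and 10 CPM on the higher side, over all genes of the table. The procedure was tested on simulated stage sums with counting error only and planted changes larger than the limit. These held no single oocytes, so they cannot show how the weight of the deepest oocytes, or a ratio near the limit, acts on a call. Cell values are given for members past this rule in any of the 6 stage pairs and for Ube2a, Ube2b, Ube2c, Ube2d3, Ube2m, Ube2n and Ube2s, and partner genes are the 3 with the largest change per list between NGO and GO1. One member, which the counts include, and some genes of the E1 and modifier lists, with the counts of both lists, are not reported here. The gene family, whose members follow from the symbol, and the lists were chosen with earlier results of these data known. Alternatives were DESeq2 (1.42.0) size factors, edgeR (4.0.16) TMM factors, the mean over cells, cells thinned to 20000 UMIs, sums without the 10 deepest cells per stage, no minimum or 50 CPM, 1.5-fold, and leaving out Ube2cbp. No doublet caller was run, as oocytes were picked by hand. Positions are those of GENCODE vM1 (NCBIM37, the same build as mm9), matched for 33 of 37 members, and promoters those of RefSeq (GRCm38.p6). Chromatin accessibility and DNA methylation were not analysed here. Python (3.11.15) with pandas (2.3.3) and scipy (1.17.1), and R (4.3.3) were used.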

Additional observations from a re-analysis of the deposited data

How the results depend on the processing

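All values rest on 1 pooled sample per stage, so they carry counting error only, and the weight of the deepest oocytes in GO1 and GO2 is the main limit. No Ube2 gene past the size rule, and none of 27 such partner genes, changed direction under 5 other scalings and weightings (run for the partners after seeing the data). Of the partners 19 passed the rule in all 5, and the losses of the 2-fold limit are given with the genes. The shares over all genes moved too. From NGO to GO1, 22.1% of all genes were higher and 34.6% lower as a mean over oocytes, 22.8% and 34.4% thinned, 21.6% and 37.6% without the deepest oocytes, 23.2% and 23.1% with DESeq2 factors and 24.5% and 21.6% with TMM factors, so the members' counts are no result about the family. Only counts of Ube2 genes that moved by more than 1.5-fold, or to or from 0, are listed below, and the cause of each move was not tested. Without the 10 deepest oocytes per stage, 3 were higher and 9 lower in GO1 than in NGO, 1 higher in GO2 than in GO1, 2 higher and 1 lower in FGO than in GO3, and 6 higher in FGO than in GO1. Over all genes, 9.43% were then higher in GO2 than in GO1 and 22.3% higher in FGO than in GO1. From GO3 to FGO, 3.20% were higher and 4.94% lower. As a mean over oocytes, 8 were lower in GO1 than in NGO, 4 lower in GO2 than in GO1, 3 higher in FGO than in GO3, 1 higher and 0 lower in FGO than in NGO, and 5 higher and 3 lower in FGO than in GO1. Of all genes, 12.3% were then lower in GO2 than in GO1 and 3.62% higher in FGO than in GO3. From NGO to FGO 9.97% were higher and 20.05% lower, and from GO1 to FGO 16.99% and 15.6%. With thinned oocytes, 8 were lower in GO1 than in NGO, 1 higher and 1 lower in GO3 than in GO2, 5 higher in FGO than in GO3, 1 higher and 0 lower in FGO than in NGO, and 5 higher and 4 lower in FGO than in GO1. Of all genes, 11.65% were then higher and 4.21% lower in GO3 than in GO2, and 6.98% higher in FGO than in GO3. From NGO to FGO 11.96% were higher and 21.96% lower, and from GO1 to FGO 18.9% and 17.7%. The members' counts were not tested against these shares. With DESeq2 or TMM factors, 1 was lower in GO2 than in GO1, against 1.10% and 1.36% of all genes. With a minimum of 50 CPM, 3 were higher in GO1 than in NGO, and 0 lower in GO2 than in GO1, in FGO than in GO3 and in FGO than in GO1. With no minimum, 1 was higher and 4 lower in GO2 than in GO1, 1 lower in GO3 than in GO2, 2 higher in FGO than in GO3, 5 higher and 2 lower in FGO than in NGO, and 2 lower in FGO than in GO1. At 1.5-fold, 11 were lower in GO1 than in NGO, 4 lower in GO2 than in GO1, 1 higher and 1 lower in GO3 than in GO2, 4 higher in FGO than in GO3, 4 higher and 5 lower in FGO than in NGO, and 6 higher and 5 lower in FGO than in GO1. Shares over all genes were not computed at 50 CPM, with no minimum or at 1.5-fold, so these counts too are no result about the family.

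The summed CPM of the family, from NGO to FGO in order of size, was 7106, 6439.7, 7576, 6788 and 6718 with DESeq2 factors, 6841, 6458, 7453, 6966 and 6892 with TMM factors, 7629.6, 5699.8, 6397, 6536 and 6805 as a mean over oocytes, and 7627, 5689, 6496, 6443 and 6839 with thinned oocytes. Without the 10 deepest oocytes it was 5752, 6331, 6504 and 6898 from GO1 to FGO. Of the members with at least 10 CPM, 4 then had their highest value in GO1 with DESeq2 or TMM factors, 9 in GO2 with DESeq2 and 11 with TMM, and 5 in GO1 without the deepest oocytes. In FGO the number was 2 with TMM factors, as a mean over oocytes and without the deepest oocytes, 4 with thinned oocytes and 3 with no minimum. At 50 CPM it was 3 in GO1, 0 in GO3 and 0 in FGO. The stage of the highest value was not counted over all genes in these settings, so these counts are no result about the family. No paired analysis was possible because the result comes from no test and the cells carry no library number.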
